A study of Mus musculus with 12 samples.

Results

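The comparison described here is between the uteri of 3 EAAE mice and the uteri of 3 wild-type (WT) mice under saline, 6 of the 12 arrays of the series, chosen by the sample titles. All 6 mice were ovariectomized adult females, at least 10 weeks of age, of a C57bl6/Jx129 background. After ovariectomy they rested for 10 to 14 days, so that hormones of the ovary were cleared, then received 100 ul of saline, and the uterus was taken 2 h later. By the labels the groups differed in the Esr1 genotype alone: WT, or EAAE, which the series title describes as a DNA binding deficient form of estrogen receptor alpha, the protein of Esr1. The other 6 arrays, 3 WT and 3 EAAE mice given estradiol (E2), serve only to estimate the spread and to show whether a difference under saline was also seen in other mice. The labels name no Cre driver or inducible allele and do not give the zygosity, and each array measured a whole uterus, in which epithelium, stroma, muscle, vessels and leukocytes are mixed. In such bulk tissue fewer cells of a type and less RNA per cell cannot be told apart. The question the comparison addresses is what the uterus looks like without hormone when the receptor cannot bind DNA.

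Estrogen receptor alpha is a nuclear receptor that, once bound by estradiol, attaches to estrogen response elements in DNA through its zinc fingers, and it also reaches genes through other DNA-bound factors. In the rodent uterus it drives water uptake, leukocyte entry and epithelial proliferation, and during development it is needed for the organ to grow to its adult size. Ovariectomy removes the main source of estradiol, and the uterus is known to regress after it.

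Levels are given as the log2 of the deposited intensity minus the log2 of the 75th percentile of the same array, in the order of replicates 1 to 3, and they are not comparable between probes. A difference is EAAE minus WT on this log2 scale. Differences were tested with limma over 19301 genes, and "called" means a Benjamini-Hochberg adjusted p under 0.05. Where one group was not well above background on any array, the difference is given only as a bound ("at least N-fold"), set against the lowest signal that was well above background on each array. All 34 tested markers of uterine epithelium, all 19 of smooth muscle and 24 of 25 of endometrial stroma were well above background on all 6 arrays. A tested gene had to be well above background on every array of some group, and all 19 adipocyte markers tested passed likewise. These counts are therefore no check of tissue identity.

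The 6 arrays were alike in brightness, with medians of 184.1 to 249.5 intensity units and 69.96 to 74.03% of spots well above background. Arrays of one genotype correlated with r of 0.989 to 0.9923 and arrays of different genotypes with r of 0.9569 to 0.9687, and the first principal component of the 6 arrays held 69.5% of the variance and separated the genotypes. The arrays lay on 3 slides. Slide 1 held WT replicate 1 and EAAE replicate 2, slide 2 held EAAE replicates 1 and 3, and slide 3 held WT replicates 2 and 3. The WT arrays lay at positions 1, 1 and 2 of their slides and the EAAE arrays at positions 2, 3 and 3, so position largely follows genotype. The value within slide 1, which is a single array of each genotype, and the fit with slide as a block are given beside many of the results. Neither removes position, since on slide 1 the WT array lay at position 1 and the EAAE array at position 3. A result given without these values is not thereby free of slide or position.

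Esr1 itself was transcribed in both genotypes. The brighter of its probes (chromosome 10, 5343241 to 5343300, mm7) read 2.74, 2.94 and 2.93 in WT and 3.15, 3.35 and 3.35 in EAAE, so the groups did not overlap, and the difference was 0.41 (SE 0.10, adjusted p = 0.00902). A dimmer probe (5345231 to 5345290) gave -0.28 and was not called in the fit of all probes one by one (adjusted p = 0.16), so the probes disagreed in sign. The call of the brighter probe ended with position as a linear term (0.36, adjusted p = 0.0984) and with slide and position (adjusted p = 0.489). The labels describe a changed receptor and not a lost gene, so neither probe checks them.

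Of the 19301 genes tested, 2803 (14.5%) were called higher and 2911 (15.1%) lower in EAAE, 29.6% in all. The counts of calls in every gene list below are to be read beside these shares. The median size of a called difference was 0.67, and the median over all genes tested was 0.00. A difference of at least 1 log2 was reached by 724 genes called higher and 926 called lower, and one of at least 3 by 46 and 78. Groups that do not overlap were found in 46.9% of all genes tested and in 5652 of the 5714 genes called. Within slide 1, 5706 of the 5714 pointed the same way, a sign that is fixed for those whose groups do not overlap and so is no check on slide. With slide as a block 1759 were higher (9.11%) and 1869 lower (9.68%), and with slide and position together 230 and 191. Of the 1650 genes called with at least 1 log2, 1422 were also called with the slide block, 368 with slide and position, and 1422 in every fit that left out an array.

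The gene with the largest rise was Dlk1, an imprinted membrane protein related to Notch ligands that is abundant in fetal tissue. It read -3.94, -4.61 and -5.35 in the WT uteri and 1.80, 1.99 and 2.30 in the EAAE uteri, a difference of 6.67 (SE 0.35, adjusted p = 1.44e-06). Every EAAE array stood far above every WT array. Pde6h, the inhibitory subunit of the cone photoreceptor phosphodiesterase, read -3.88, -3.46 and -4.36 against 1.59, 1.98 and 2.43 (difference 5.90, SE 0.31). Krt12, a keratin known from the cornea, read -4.54, -4.35 and -4.22 against 0.22, 1.77 and 1.52 (5.54, SE 0.48), with EAAE replicate 1 below the other two. Pde6h and Krt12 are known from the eye, and in the WT uterus both were dim but above background.

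The further rises ranked by size held enzymes, a transporter and muscle proteins. Gldc, which breaks down glycine in mitochondria, was higher by 4.54 (SE 0.27), Cwh43, which acts on lipid anchors of membrane proteins, by 4.81 (SE 0.23), and Slc13a5, a citrate transporter, by 3.84 (SE 0.33). Bhmt2, a methyltransferase that remakes methionine, was not well above background on any WT array and at least 4.42-fold higher in EAAE. The troponins of striated muscle Tnnc2 and Tnnt2 were higher by 4.31 (SE 0.56) and 4.02 (SE 0.23). Tnnc2 varied among the EAAE uteri (2.02, 1.51 and -0.01), whereas Tnnt2 was tight (2.25, 2.06 and 1.95). The orphan receptor Esrrb, a relative of estrogen receptor alpha, was dark in WT and at least 11.4-fold higher in EAAE (adjusted p = 0.000109). Sox2ot, a noncoding RNA that overlaps Sox2, was at least 7.3-fold higher and Kndc1, a neuronal protein, at least 6.47-fold, but another probe of Kndc1 gave -0.92 and was not called. Wdr72, known from enamel formation, was higher by 4.03 (SE 0.39).

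**Figure D1:**
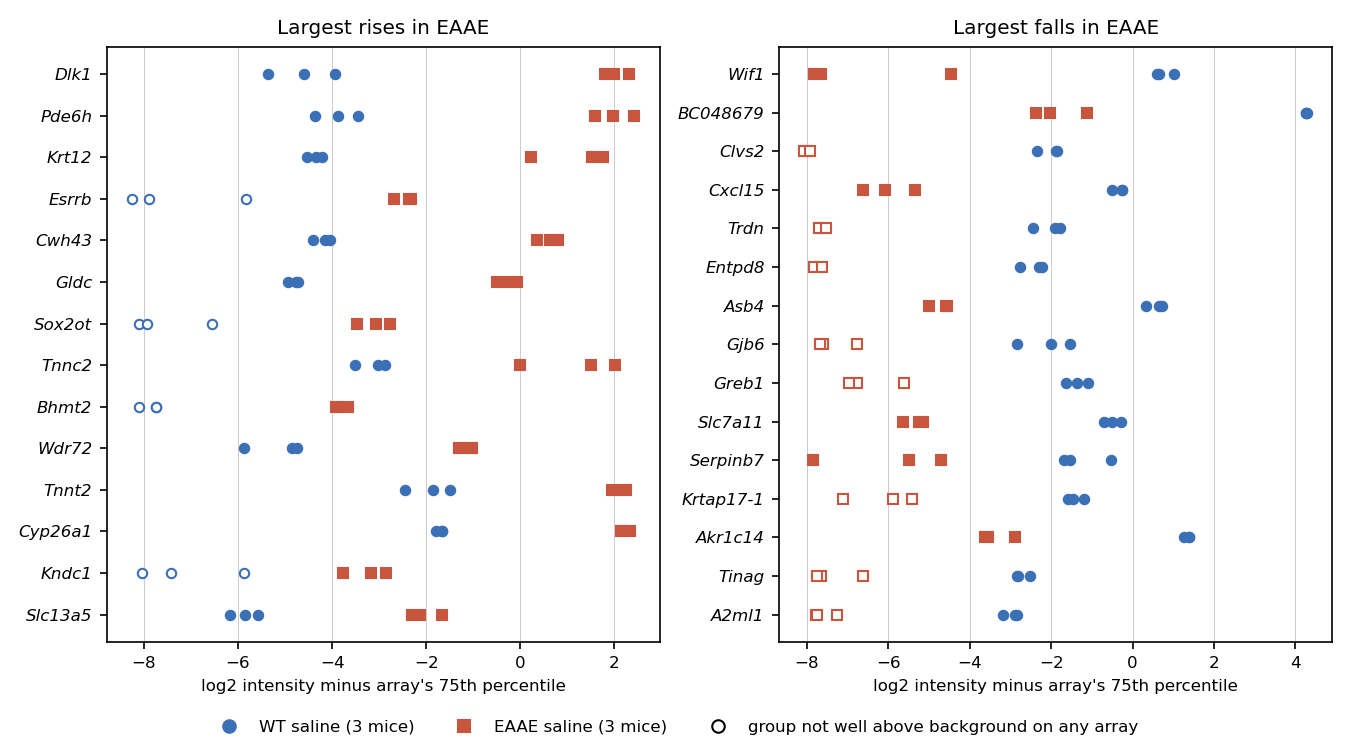
Levels of 14 of the 15 genes with the largest rises and of the 15 with the largest falls, 1 symbol per array, as log2 intensity minus the 75th percentile of the array. Circles are WT and squares EAAE; open symbols mark a group that was not well above background on any array, for which only a bound is given. In each of the 29 genes shown the 3 EAAE arrays lie apart from the 3 WT arrays, because only such genes were eligible. Groups do not overlap in 46.9% of all genes tested.

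Wif1, a secreted protein that binds Wnt ligands and keeps them from their receptors, was among the largest falls. It read 0.60, 1.01 and 0.65 in WT and -4.47, -7.83 and -7.65 in EAAE, where only 1 of the 3 arrays was well above background (difference -7.40, SE 0.69, adjusted p = 4.45e-05). All 3 EAAE arrays lay far below the lowest WT array, and EAAE replicate 1 lay above the other EAAE arrays. EAAE replicates 2 and 3 lay below the lowest signal that was well above background on their arrays (-5.73 and -5.68), so the fitted size and the rank of this fall are uncertain. Cxcl15, a chemokine of uterine glands, read -0.25, -0.50 and -0.27 against -5.35, -6.08 and -6.61 (-5.68, SE 0.48), and in EAAE it too was well above background on 1 array. BC048679, a gene known by a clone name, read 4.25, 4.27 and 4.28 against -1.13, -2.02 and -2.38 (-6.11, SE 0.27), above background on all 6 arrays. Asb4, an adaptor of ubiquitin ligases, was at -5.27 (SE 0.21). Slc7a11, which brings cystine into the cell for glutathione synthesis, was at -4.85 (SE 0.27). The serpin Serpinb7 was at -4.76 (SE 0.72) and spread widely among the EAAE arrays (-4.70, -5.49 and -7.85). Slc7a11 and Serpinb7 were each well above background on 2 of the 3 EAAE arrays.

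In 8 of the 15 largest falls the EAAE uterus gave no signal well above background, so that only bounds hold. Greb1, a cofactor and target of estrogen receptor alpha, read -1.64, -1.35 and -1.10 in WT and was at least 19.8-fold lower in EAAE (adjusted p = 2.87e-05). The hair keratin partner Krtap17-1 was at least 18.4-fold lower, the lipid-binding Clvs2 13.6-fold, Trdn, which anchors calcium release channels in striated muscle, 13.5-fold, and the gap junction protein Gjb6 12.7-fold. The nucleotide-splitting Entpd8, the basement membrane protein Tinag and the protease inhibitor A2ml1 were at least 10.3-, 8.44- and 7.09-fold lower. All 30 of these largest changes were called with slide as a block and in every fit that left out an array, and 24 with slide and position.

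Of 40 known estrogen targets tested, 15 were called lower and 5 higher, with a median of -0.47 (0.00 over all genes). With slide as a block 12 were lower and 5 higher. Besides Greb1, Ramp3, a partner of the adrenomedullin receptor, read 0.86, 1.03 and 1.10 in WT and -2.02, -1.75 and -1.71 in EAAE, a difference of -2.82 (SE 0.10, adjusted p = 3.29e-07). The groups were tight and did not overlap. Igf1, the stromal growth factor through which estradiol acts on epithelium, read 1.63, 0.94 and 1.09 against 0.36, 0.34 and -0.01 (-0.99, SE 0.27, adjusted p = 0.0186), a call that ended without WT replicate 1 (-0.79, adjusted p = 0.0729) or EAAE replicate 3 (-0.87, adjusted p = 0.07), with position as a linear term (-0.82, adjusted p = 0.16) and with slide and position (adjusted p = 0.423). Lcn2, an iron-binding secretory protein, was at -2.18 (SE 0.37), the gap junction protein Gjb2 at -1.70 (SE 0.19) and Wnt4 at -1.08 (SE 0.14). The progesterone receptor Pgr read -1.31, -1.26 and -1.56 against -1.83, -1.91 and -2.03, which did not overlap, but it was not called (-0.55, SE 0.24, adjusted p = 0.115). It was called in the fit of the 6 saline arrays alone (adjusted p = 0.0158) and without EAAE replicate 3 after estradiol (adjusted p = 0.00267), whose spread the other fits share. The secretory products Ltf (3.03, 1.55 and 1.36 against 2.97, 2.39 and 0.73) and C3 (6.70, 4.89 and 5.79 against 5.55, 5.50 and 4.79) varied by more within a genotype than between them.

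A few estrogen targets stood the other way. Slc9a2, a sodium and proton exchanger, read -3.14, -3.44 and -3.28 in WT and 0.05, -0.29 and 0.02 in EAAE (3.22, SE 0.15, adjusted p = 7.93e-07). The other four called higher, named after their values were seen, were the estrogen sulfotransferase Sult1e1 (at least 6.32-fold), Ctsd (1.06), Adm (0.70) and Myc. Myc, a driver of cell growth, read 0.50, 0.59 and 0.63 against 0.99, 0.95 and 1.07 (0.43, SE 0.12); the slide block ended this call (adjusted p = 0.196), as did leaving out WT replicate 1 or 2 or EAAE replicate 1 or 3 (adjusted p = 0.0561 to 0.0833). Among 38 steroid receptors and cofactors 8 were called higher and 2 lower (5 and 1 with slide as a block), with a median of 0.14; the share is near the 29.6% of all genes, so the count says nothing about the list. The coactivator Ncoa2 was at 0.49 (SE 0.09). Esr2 and Lif were not well above background on all arrays of any group and were not tested.

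Of 23 glucocorticoid-inducible genes 9 were called higher and 4 lower (median 0.34), and of 31 progesterone-responsive uterine genes 11 and 5 (median 0.31), beside 14.5% and 15.1% of all genes; no test compares these lists with other genes. With slide as a block the counts were 7 and 2, and 8 and 3. Fkbp5, a chaperone of steroid receptors that both hormones induce, read -2.54, -2.98 and -2.53 in WT and -0.40, -0.84 and -0.45 in EAAE (2.12, SE 0.20, adjusted p = 4.14e-05). Tsc22d3, a mediator of glucocorticoid action also called GILZ, read 2.71, 2.77 and 3.14 against 4.37, 4.23 and 4.16 (1.38, SE 0.16). The metal-binding metallothioneins Mt2 (1.503, SE 0.10) and Mt1 (1.23, SE 0.11), which also respond to metals and whose probes may share targets, and the factor Cebpd (1.20, SE 0.11) were higher with no overlap. The 4 members called lower were Lcn2, Tgm2 (-0.95), Lyve1 and Cdkn1c (-0.52; adjusted p = 0.0991 with the slide block). Per1 was at 0.74 and was not called with the slide block (adjusted p = 0.0814) or without WT replicate 1 (adjusted p = 0.0574).

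On the progesterone side Cyp26a1, which destroys retinoic acid, read -1.66, -1.65 and -1.79 against 2.33, 2.14 and 2.19 (3.92, SE 0.16, adjusted p = 5.04e-07). The endoderm and gland factor Sox17 was at 1.24 (SE 0.13). Acod1 (2.42), the activin trap Fst (1.98), Stc1 (1.94) and Fgf18 (1.59), named after their values were seen, were called higher too. Against them stood Cxcl14, a chemokine, at 3.36, 3.96 and 3.25 in WT and 1.02, 1.09 and 0.94 in EAAE (-2.51, SE 0.17), and Gli1 (-1.43, SE 0.23). Ihh, the epithelial hedgehog that progesterone induces, read -2.02, -1.68 and -1.54 against -3.05, -2.88 and -3.56 and was not called (-1.42, SE 0.56, adjusted p = 0.0817). Hoxa10 (-0.02, SE 0.10) and Hoxa11 (0.31, SE 0.27) were not called.

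The palindrome bound by glucocorticoid and progesterone receptors, and the one bound by estrogen receptors, were looked for on both strands of the promoter windows of RefSeq (GRCm38.p6, from 250 bases before to 50 after the start, 300 bases in all), which 12115 of the genes tested have. The estrogen response element (GGTCA and TGACC, 3 bases apart) was in the windows of 4 genes (0.033% of all), 0 of 1602 called higher and 1 of 1972 called lower. The hormone response element (GNACA and TGTNC, 3 bases apart) was in 58 genes (0.479%), 9 called higher (0.562%) and 9 called lower (0.456%). Mt1 is shown because it was called higher, belongs to the glucocorticoid-inducible list and holds the hormone response element. The stretch lies at chr8:94178980-94179022 (GRCm38.p6, plus strand), the match begins 94 bases before the start, and the capitals mark it.
Mt1: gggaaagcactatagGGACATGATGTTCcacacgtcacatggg

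Enzymes of steroid and retinoid metabolism were called lower in 10 and higher in 4 of 32 (median -0.11), and in 7 and 3 with slide as a block. Akr1c14, which inactivates androgens and progestins at their 3-keto group, read 1.26, 1.38 and 1.39 in WT and -2.89, -3.62 and -3.55 in EAAE (-4.70, SE 0.18, adjusted p = 3.29e-07). Aldh1a1, which makes retinoic acid, read 3.57, 3.35 and 3.50 against 1.06, 0.75 and 0.51 (-2.70, SE 0.16), and the stromal isoform Aldh1a2 was at -0.80 (SE 0.10). Hsd11b2, which inactivates glucocorticoid, was at -0.70 (SE 0.17, adjusted p = 0.0123). In the other direction the estrogen hydroxylase Cyp1b1 read -2.43, -2.04 and -3.01 against 0.996, 0.81 and 0.86 (3.38, SE 0.27, adjusted p = 1.67e-05). Another maker of retinoic acid, Aldh1a3, was called higher (0.90; adjusted p = 0.0999 with the slide block; named after its value was seen).

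**Figure D2:**
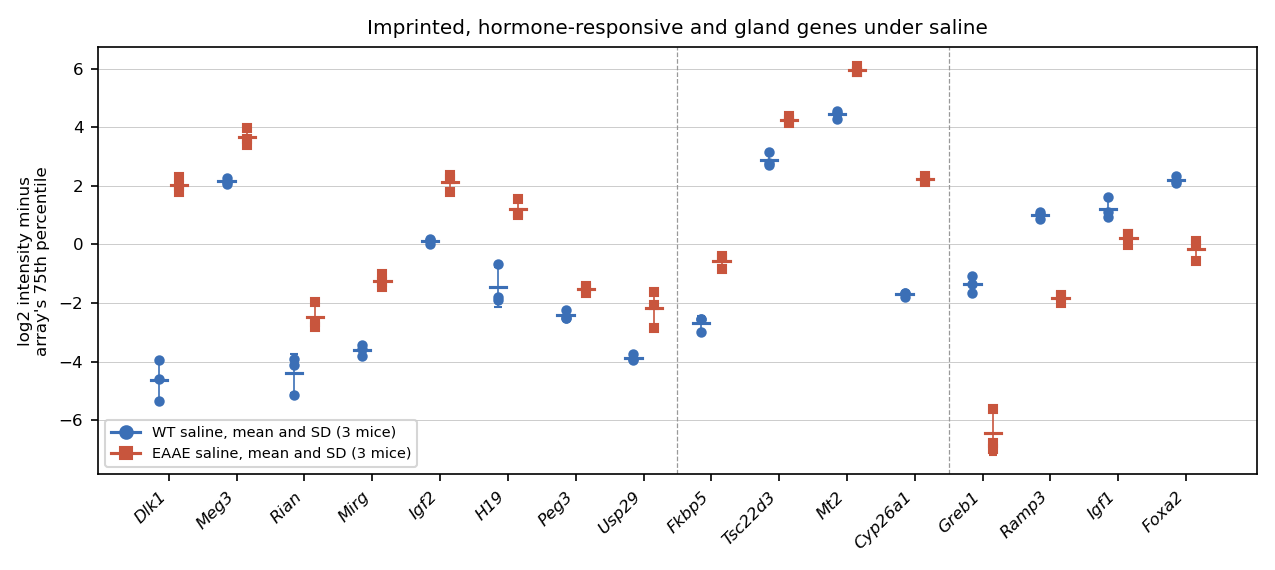
Levels of 8 imprinted genes (left of the first dashed line), 4 hormone-responsive genes (middle) and Greb1, Ramp3, Igf1 and Foxa2 (right), as log2 intensity minus the 75th percentile of the array, with 1 symbol per array and the mean and SD of 3 mice. Groups do not overlap in any of the 16 genes, which holds for 46.9% of all genes tested. Greb1 was not well above background in EAAE, and levels are not comparable between genes. Some of the genes were chosen after their values were seen.

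Genes of DNA replication and mitosis had the largest share of calls in one direction among the 45 lists. Of 43 tested, 37 were called lower and 0 higher (15.1% of all genes were called lower), with a median of -1.52, and 36 were lower with slide as a block and 9 with slide and position. Within slide 1 all 43 stood lower in EAAE, a sign that is fixed where the groups do not overlap and so is no check on slide. Mki67, the proliferation marker Ki-67, read 1.92, 1.57 and 1.41 in WT and -1.20, -1.30 and -1.22 in EAAE (-2.88, SE 0.30, adjusted p = 9.49e-05). Ube2c and Cdc20, which drive the exit from mitosis, read -0.58, -1.25 and -1.22 against -3.90, -3.82 and -3.77 (-2.81, SE 0.24) and 1.77, 1.52 and 1.36 against -0.54, -0.50 and -0.45 (-2.05, SE 0.12). The mitotic kinesin Kif20a was at -2.63 (SE 0.21). Other mitotic members, named after their values were seen, were Cenpf (-3.37), Ccnb2 (-2.98) and Bub1, which was at least 6.75-fold lower. The helicase subunit Mcm5 was at -0.995 (SE 0.08) and Mcm7 at -0.37. The 6 members with no call were Bub1b, Ccne1, Mcm2, Mcm3, Mcm4 and Mcm6. WT replicate 1 was the highest WT array for all of Mki67, Ube2c, Cdc20, Kif20a and Mcm5.

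Many promoters of genes that peak in mitosis carry the cell cycle genes homology region, TTTGAA. These motifs were chosen after the data had been seen. TTTGAA, on either strand, was in the promoter windows of 16 of the 36 list members with a window (44.4%) and of 1821 of all 12115 genes (15.03%). Among members called lower the share was 14 of 31 (45.2%), and among the others 2 of 5. The E2F element GCGGGAAA was in 3 of 36 (8.33%) against 249 of all (2.06%), and it overlapped TTTGAA in 0 windows. The stretches below are from members that were lower by over 2 log2, with the match in capitals: Ccnb2 at chr9:70421701-70421736 (minus strand), Mki67 at chr7:135716457-135716492 (minus), Prc1 at chr7:80294431-80294466 (plus) and Cdk1 at chr10:69352963-69352998 (minus), all GRCm38.p6.
Ccnb2: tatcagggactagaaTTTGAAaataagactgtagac
Mki67: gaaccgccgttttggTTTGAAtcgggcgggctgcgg
Prc1: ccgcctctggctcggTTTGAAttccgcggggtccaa
Cdk1: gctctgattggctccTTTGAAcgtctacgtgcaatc

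The ligands and receptors of growth factors diverged. In the insulin-like growth factor axis 5 of 17 genes were called higher and 6 lower: Igf1 was lower, whereas Igf2, its fetal counterpart, read 0.18, 0.02 and 0.15 in WT and 1.80, 2.24 and 2.38 in EAAE (2.03, SE 0.21, adjusted p = 9.67e-05). The receptor Igf1r (1.02, SE 0.10) and Igf2r, which clears Igf2 (0.69, SE 0.09), were higher, and Htra1, a protease that cuts binding proteins, was lower (-0.81, SE 0.10). The list of EGF and FGF ligands and receptors also holds genes of other growth factor families. Of its 31 genes 13 were called higher and 2 lower (median 0.41), and 14 and 2 with slide as a block. Those higher included the ligands Tgfa (1.05, SE 0.09) and Nrg4 (1.45, SE 0.17) and the intracellular Fgf13 (1.06, SE 0.11). The receptor Fgfr2, also higher, read 1.78, 1.86 and 1.94 against 2.85, 2.90 and 2.77 (0.98, SE 0.12). The members called lower, Met, the hepatocyte growth factor receptor, and Pdgfc (-0.48 and -0.46), belong to neither the EGF nor the FGF family. Another probe of Met gave 0.03 and was not called.

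Among 44 genes of TGF-beta, activin and BMP signalling 12 were called higher and 9 lower (median 0.14), and 8 and 8 with slide as a block. The BMP targets Id2 (3.11, 3.37 and 3.05 against 4.58, 4.21 and 4.60, difference 1.29, SE 0.15) and Id3 (2.81, 2.92 and 2.88 against 3.71, 3.73 and 3.54, 0.79, SE 0.09) were higher. The secreted BMP antagonist Chrdl1 was higher (1.66, SE 0.14). Amhr2, the receptor of the Mullerian inhibiting hormone, was higher by 1.66 (SE 0.28).

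In the Wnt pathway 10 of 45 genes were called higher and 16 lower (median -0.21). Among the inhibitors, beside Wif1, Frzb read -1.41, -1.17 and -1.25 against -3.61, -3.76 and -3.36 (-2.30, SE 0.17) and Dkk2 1.26, 1.19 and 1.47 against 0.25, 0.16 and 0.35 (-1.05, SE 0.11). The ligands split, with Wnt11 at -0.64, -0.82 and -0.90 in WT and 1.86, 1.87 and 1.93 in EAAE (2.67, SE 0.15, adjusted p = 2.04e-06), against Wnt4 (0.23, 0.25 and 0.40 and -1.02, -0.48 and -0.87). Wnt7a, the epithelial ligand that patterns the uterus, was at -0.68 (SE 0.21, adjusted p = 0.0351), which the slide block ended (adjusted p = 0.0843), as did leaving out WT replicate 1 or 2 or EAAE replicate 1 or 3 (adjusted p = 0.0904 to 0.129). Axin2, a general target of Wnt signals, was not called (0.38, adjusted p = 0.348; named after its value was seen).

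Of 18 hedgehog pathway genes 5 were called lower and 2 higher (median -0.16), but 3 and 1 with slide as a block. Those lower included Gli1 (-1.41, -0.96 and -1.01 against -2.64, -2.60 and -2.43), Gli2 (-0.79, SE 0.12), Hhip (at least 1.48-fold) and Smo (-0.30), of which Hhip and Smo were not called with the slide block (adjusted p = 0.276 and 0.169). Disp2, a relative of the transporter that releases hedgehog, was at least 2.39-fold higher. Patterning genes of the Mullerian duct were called higher in 10 and lower in 5 of 30, with a median of -0.02, and in 5 and 4 with slide as a block. Msx2, which readies the luminal epithelium for the embryo, read 0.05, 0.09 and -0.45 against -2.38, -2.40 and -3.64 (-2.70, SE 0.34, adjusted p = 0.000261). Pax8 (1.05, SE 0.13) and Hoxb6 (1.02, SE 0.16) were higher, but another probe of Hoxb6 gave -0.09 and was not called. Hand2, the stromal factor that holds back epithelial growth, was at 0.53 (SE 0.13) and was not called with the slide block (adjusted p = 0.0684). Satb1 was at -0.83 (SE 0.11).

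Imprinted genes were called higher in 12 and lower in 4 of 27 (median 0.29), and in 3 and 0 with slide and position. Beside Dlk1, the noncoding RNA Mirg of the same imprinted domain read -3.42, -3.56 and -3.80 in WT and -1.46, -1.29 and -0.996 in EAAE (2.35, SE 0.16, adjusted p = 5.74e-06). Kcnq1 (1.29, SE 0.10), a potassium channel, and Phlda2 (1.63, SE 0.16), which restrains placental growth, were higher, whereas Cdkn1c (-0.52) and Ascl2 (-0.66) of the same imprinted domain of chromosome 7 were lower. Others, named after their values were seen, were the noncoding RNAs Rian (1.92) and Meg3 (1.501) of the Dlk1 domain, H19 (-0.67, -1.90 and -1.78 against 1.06, 1.56 and 0.99, 2.65), the partner of Igf2, and Usp29 (1.68) and Peg3 (0.89), which are neighbours. Genes expressed from the mother's copy (H19, Meg3, Rian, Mirg, Phlda2, Kcnq1) and from the father's (Dlk1, Igf2, Peg3, Usp29) were both among those higher. The other two called lower were Grb10 (-0.56) and Sgce (-0.48), and Ascl2 and Cdkn1c missed the threshold with the slide block (adjusted p = 0.0562 and 0.0991).

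Markers of uterine epithelium were called higher in 21 and lower in 6 of 34 (median 0.67), against 14.5% and 15.1% of all genes, and in 2 and 0 with slide and position. The sum of the 34 intensities, each relative to the 75th percentile of its array, was 267 to 318 in WT and 552 to 647 in EAAE. Bright members weigh most in this sum, among them Wfdc2, so the sum does not show a rise shared by the 34 members. Among those higher, the adhesion protein Cdh1 read 2.02, 1.83 and 1.85 against 2.63, 2.71 and 2.84 (0.83, SE 0.08), Tspan1 1.45, 1.17 and 1.14 against 3.08, 3.14 and 3.07 (1.84, SE 0.10), the secreted Wfdc2 1.52 (SE 0.15), Spint1 0.99 (SE 0.10) and Krt19 0.80 (SE 0.14). Epcam, a pan-epithelial adhesion protein, was not called (0.12, adjusted p = 0.534). The members called lower were Msx2, Foxa2, Lcn2, Clu (-1.58), Muc4 (-1.55) and Wnt7a. Another probe of Muc4 gave 0.06 and was not called.

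Foxa2, the factor that glands need, read 2.17, 2.10 and 2.33 in WT and -0.03, 0.10 and -0.58 in EAAE (-2.37, SE 0.29, adjusted p = 0.000238). Of 10 gland products tested 3 were called lower, Cxcl15, Aldh1a1 and Foxa2 itself, and 1 higher, the sulfotransferase Sult1d1 (1.88, 1.67 and 1.89 against 4.08, 3.51 and 3.52, 1.89, SE 0.15). Prss28, Prss29, Spink1, Lif and Ttr did not pass the background filter. Foxj1, the factor that switches on motile cilia, read -0.96, -1.19 and -2.12 against -5.12, -5.31 and -5.17 (-3.78, SE 0.34, adjusted p = 3.17e-05). Of the other 14 markers of oviduct and ciliated cells 1 was called, Dnah9 (0.64), whose other probe had the opposite sign (-0.44) and whose call ended without any saline array except EAAE replicate 1 (adjusted p = 0.0621 to 0.14), and the list's summed level overlapped (10.3 to 11.5 in WT, 10.2 to 13.8 in EAAE).

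Genes of water and ion transport were called higher in 10 and lower in 5 of 30 (median 0.34). With slide as a block 6 were higher and 5 lower (median 0.12), and with slide and position 0 and 0. The sodium pump modulator Fxyd4 read 4.41, 4.09 and 4.37 against 6.40, 6.46 and 6.45 (2.15, SE 0.18), the sodium channel subunit Scnn1a -0.03, -0.54 and -0.31 against 1.45, 1.27 and 1.33 (1.64, SE 0.16) and the pump subunit Atp1b1 was at 1.22 (SE 0.14). Another subunit of the same channel, Scnn1b, was called lower (-1.47), and Scnn1g higher (1.60; adjusted p = 0.241 with the slide block). The summed level of the epithelial markers, in which bright members weigh most, was higher in the same uteri. Its part in these genes was not tested.

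**Figure D3:**
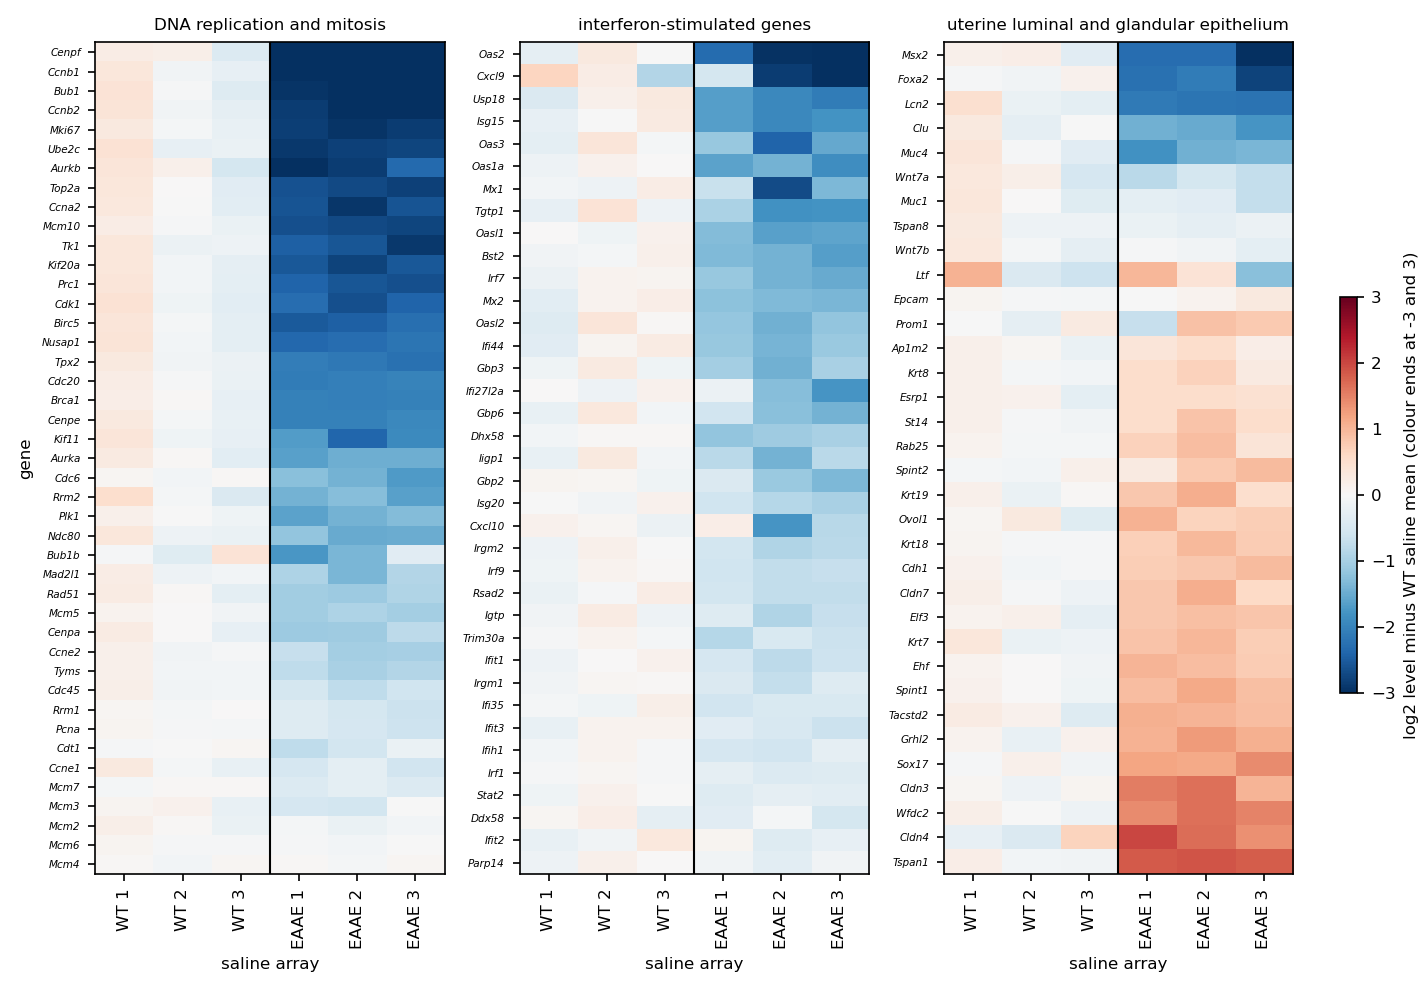
Heat maps of tested members of 3 lists on the 6 saline arrays. Each row is a gene and each column an array; colour gives the log2 level minus the mean of the 3 WT arrays, from blue (lower) to red (higher), ending at -3 and 3. In the replication and interferon lists 0 members were called higher, whereas the epithelial list held 21 called higher and 6 called lower.

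Genes of the extracellular matrix that were called were mostly lower. Of 50 tested, 23 were called lower and 2 higher, and 25 had no call (median -0.68). With slide as a block 15 were lower and 0 higher, and with slide and position 1 and 0. Tnc, an adhesion-modulating glycoprotein, read -0.71, -1.28 and -0.92 in WT and -2.79, -3.45 and -3.33 in EAAE (-2.22, SE 0.22, adjusted p = 6.42e-05). Thbs2 was at -2.35 (SE 0.31), the proteoglycan Lum at -1.37 (SE 0.18), the laminin chain Lamb1 at -0.97 (SE 0.15) and the hyaluronan synthase Has2 at -0.84 (SE 0.20). Among matrix proteases and inhibitors 16 of 39 were lower and 2 higher (median -0.50), and 10 and 2 with slide as a block. Plat, the tissue plasminogen activator, read 4.43, 4.22 and 4.08 against 2.27, 2.29 and 2.37 (-1.93, SE 0.10, adjusted p = 1.61e-06). Mmp11 (-1.10, SE 0.14) and Prss23 (-0.76, SE 0.10) were lower, and Adam12 was at least 2.57-fold lower.

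Stromal markers moved less uniformly: 8 of 25 were called lower and 3 higher (median -0.34), and their summed level was 524 to 548 in WT and 424 to 432 in EAAE. Col6a4 (3.61, 3.89 and 4.26 against 0.42, 1.59 and 1.51, -2.75, SE 0.29) and the neurotrophin receptor Ngfr (0.92, 0.95 and 1.56 against -0.14, -0.22 and 0.01, -1.26, SE 0.16) were lower, though another probe of Ngfr gave 0.27 and was not called. Vim, Pdgfra, Pdgfrb and Dcn, broad markers of stroma, were not called, but another probe of Dcn gave 0.64 and was called higher in the fit of all probes (adjusted p = 0.012), against -0.22 for the brighter one. Smooth muscle markers were called higher in 3 and lower in 3 of 19 (summed level 727 to 883 in WT, 623 to 652 in EAAE). This share is near the 29.6% of all genes called, so the count says nothing about the list. The contractile Smtn was lower (-1.31, SE 0.18), and Hspb6 (1.30, SE 0.13) and Myocd (1.07, SE 0.18) were higher, though another probe of Myocd gave -0.08 and was not called. The part that the amount of stroma or muscle in the tissue has in the matrix genes was not tested.

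Interferon-stimulated genes were called lower in 29 and higher in 0 of 38 (median -0.99), and in 24 and 0 with slide as a block. Within slide 1 all 38 stood lower, which again is fixed where the groups do not overlap and is no check on slide. Oas1a, which makes the activator of an antiviral ribonuclease, read 0.60, 0.87 and 0.75 in WT and -0.86, -0.68 and -1.12 in EAAE (-1.63, SE 0.14, adjusted p = 2.93e-05). Bst2, the tether that holds budding viruses, read 3.91, 3.96 and 4.16 against 2.69, 2.59 and 2.37 (-1.46, SE 0.13). Oasl1 was at -1.504 (SE 0.15). The probe that the files name Isg15 was at -1.79 (SE 0.17), but they place it on chromosome 17, whereas RefSeq has the gene on chromosome 4. The signal carriers of the pathway Irf7 (-1.36) and Irf9 (-0.68), named after their values were seen, were lower as well. The 9 without a call included Cxcl9, Cxcl10, Rsad2, Ifit2 and Stat2. With slide and position together 0 members of the list were called.

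Promoters of such genes carry the interferon-stimulated response element, whose core is GAAA repeated 2 bases further on. It was chosen after the data had been seen and found on either strand in 18 of the 28 list members with a window (64.3%), against 448 of all 12115 genes (3.7%). Members called lower held it in 13 of 21 (61.9%) and the others in 5 of 7 (71.4%), and it overlapped the E2F element in 4 windows of all genes. The stretches below are from members lower by over 1 log2, with the match in capitals: Bst2 at chr8:71537572-71537611, Oas3 at chr5:120777710-120777749 and Tgtp1 at chr11:48992299-48992338, all on the minus strand of GRCm38.p6. A match in these letters is a description of the window and not of binding.
Bst2: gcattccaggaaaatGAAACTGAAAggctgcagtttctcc
Oas3: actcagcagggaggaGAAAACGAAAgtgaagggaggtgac
Tgtp1: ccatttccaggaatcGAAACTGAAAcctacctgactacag

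Genes of antigen presentation were lower beside them, in 12 of 22, with 0 higher (median -0.82). The class I genes H2-T23 (5.65, 5.59 and 5.60 against 4.57, 4.33 and 4.45, -1.16, SE 0.15), H2-Q7 (-1.13, SE 0.17), H2-Q1 (-1.11, SE 0.18) and H2-K1 (-1.09, SE 0.18) are close relatives, so their probes may share targets. The class II genes were less clear: H2-Aa was called (-0.95, adjusted p = 0.046), but not with the slide block (adjusted p = 0.134) or without any saline array except EAAE replicate 1 (adjusted p = 0.08 to 0.13). Cd74 (-0.80, adjusted p = 0.0529) and H2-Ab1 (-0.83, adjusted p = 0.0681) were not called.

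Markers of macrophages and of T and natural killer cells were lower at the same time, while those of granulocytes and mast cells went both ways. Of 22 macrophage and monocyte markers 12 were called lower and 1 higher (median -1.29; 6 and 1 with slide as a block), and their summed level was 148 to 235 in WT and 48.4 to 70.9 in EAAE. Aif1, a marker of macrophages, read 2.18, 1.94 and 1.84 against 0.88, 0.52 and 0.65 (-1.30, SE 0.22), Ms4a7 was at -2.33 (SE 0.45) and the fractalkine receptor Cx3cr1 at -0.97 (SE 0.20). The member called higher was Cd163, a scavenger receptor of resident macrophages that glucocorticoid induces, at -2.03, -3.32 and -3.18 in WT and -0.55, -1.29 and -0.44 in EAAE (2.08, SE 0.35). The defining markers Csf1r, Cd68 and Itgam were not called.

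Of 22 markers of T and natural killer cells 12 were called lower and 0 higher (median -0.69), with a summed level of 7.26 to 7.63 in WT and 4.36 to 4.68 in EAAE. Gzmb, a killing protease, read -1.08, -1.09 and -1.40 against -3.49, -3.68 and -3.68 (-2.43, SE 0.32, adjusted p = 0.000395). Nkg7 (-0.86, SE 0.15), Klrd1 (-0.89, SE 0.16) and the T cell kinase Lck (-0.73, SE 0.13) were lower, while the T cell markers Cd3e, Cd3d, Cd3g and Cd4 were not called. Of 10 dendritic cell markers 2 were lower, Itgax (-1.27) and H2-Aa, and with slide as a block 0. Another probe of Itgax gave 0.18 and was not called. Of 10 B and plasma cell markers 2 were lower, Iglv1 (1.48, -0.09 and 2.67 against -1.43, -1.46 and -1.92) and Fcmr (-1.73). Granulocyte and mast cell markers went both ways in 15 tested. Their summed level, in which bright members weigh most, was 13.0 to 22.1 in WT and 40.4 to 48.0 in EAAE. The eosinophil lectin Siglecf was at least 2.21-fold lower and Prg2 at -2.19. Against them stood Mpo (2.24) and the brighter Hdc, which makes histamine (3.71, 3.19 and 3.19 against 5.44, 5.28 and 5.16, 1.93). Several of these calls on dim genes ended with the slide block, those of Itgax (adjusted p = 0.0566), Iglv1 (0.209), Fcmr (0.0532), Prg2 (0.0696) and Mpo (0.0513). Leaving out WT replicate 1 also ended those of Itgax (adjusted p = 0.0551), Iglv1 (0.0847) and Fcmr (0.124). WT replicate 3 and EAAE replicates 1 and 2 did so for Iglv1 and Fcmr (0.0643 to 0.115), and EAAE replicate 3 for Iglv1 (0.093). The part of leukocyte numbers in the interferon and antigen presentation genes was not tested.

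Complement and acute phase genes were called lower in 11 and higher in 4 of 31 (median -0.22; 6 and 1 with slide as a block). Cfi, the protease that shuts off C3b, read 0.47, 0.03 and -0.14 against -2.74, -2.35 and -2.46 (-2.64, SE 0.16, adjusted p = 2.86e-06). Clu (3.19, 2.62 and 2.88 against 1.46, 1.38 and 1.12) and Hc, complement component C5 (-1.66, SE 0.28), were lower, and the lipocalin Apod was higher (-1.96, -1.71 and -1.40 against 0.89, -0.08 and 0.14, 2.01, SE 0.24).

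Of 20 endothelial markers 6 were called lower and 0 higher (median -0.24, summed level 83.9 to 93.4 in WT, 67.7 to 78.4 in EAAE). The share called in either direction is near that of all genes (29.6%, with 14.5% higher and 15.1% lower). Sox7 (-1.43, SE 0.14) and Plvap, of fenestrated vessels (-1.39, SE 0.25), were the lowest, and Pecam1, Cdh5 and Kdr were not called. Of 6 lymphatic markers 5 were lower (median -0.82), among them Flt4 (-2.03, -2.43 and -2.36 against -3.05, -3.25 and -3.29, -0.93, SE 0.15) and Lyve1 (-0.76, SE 0.21), the latter not called with the slide block (adjusted p = 0.0886) or without WT replicate 1 or EAAE replicate 2 or 3 (adjusted p = 0.0667 to 0.0775).

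Several stress and metabolic lists held calls in a share near that of all genes (29.6%), so that their counts say nothing about the lists. Immediate early genes were called higher in 7 and lower in 3 of 36. Maff (-0.02, 0.01 and -0.07 against 1.91, 1.63 and 1.96, 1.86, SE 0.16), Gadd45b (1.46, SE 0.11), Ccn2 (1.59, SE 0.16) and Fosl2 (0.77, SE 0.09) were higher, and Fos was not called (-2.75, -2.85 and -3.64 against -4.09, -4.23 and -3.995, -1.03, adjusted p = 0.0539). Heat shock and unfolded protein genes were called higher in 8 and lower in 4 of 35; the inducible Hspa1a read 2.31, 2.18 and 2.27 against 3.82, 3.54 and 3.50 (1.36, SE 0.17), and Hspb1 (0.79), Bag3 (0.72) and Trib3 (0.71) were higher. Of 30 hypoxia and glycolysis genes 7 were higher, such as the glucose transporter Slc2a1 (1.15, SE 0.14), Hif1a (0.74, SE 0.09) and Pfkl (0.46), and 3 lower, with the hexokinase Hk2 at -1.30 (SE 0.26). Clock genes were higher in 5 and lower in 2 of 20, with Npas2 at 0.99 and Bhlhe40 at -0.40 (adjusted p = 0.0527 with the slide block).

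Cholesterol and fatty acid synthesis genes split 5 to 4 of 32, with Pmvk (0.74) higher and Mvd (-0.92) and Mvk (-0.58; adjusted p = 0.0982 with the slide block) lower. Xenobiotic and antioxidant enzymes split 7 to 7 of 39, with Fmo2 (1.37), Gsta4 (1.06) and Ephx1 (0.79) higher and Gstm5 (-0.80) lower. Ribosome biogenesis was called lower in 5 of 40 and higher in 0 (median -0.09), beside 15.1% of all genes called lower, with Ltv1 at -0.65, Wdr74 at -0.29, and Npm3 at -0.97 (adjusted p = 0.0582 with the slide block). Txnip, which restrains glucose uptake, was not called (0.37, adjusted p = 0.0977).

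**Figure D4:**
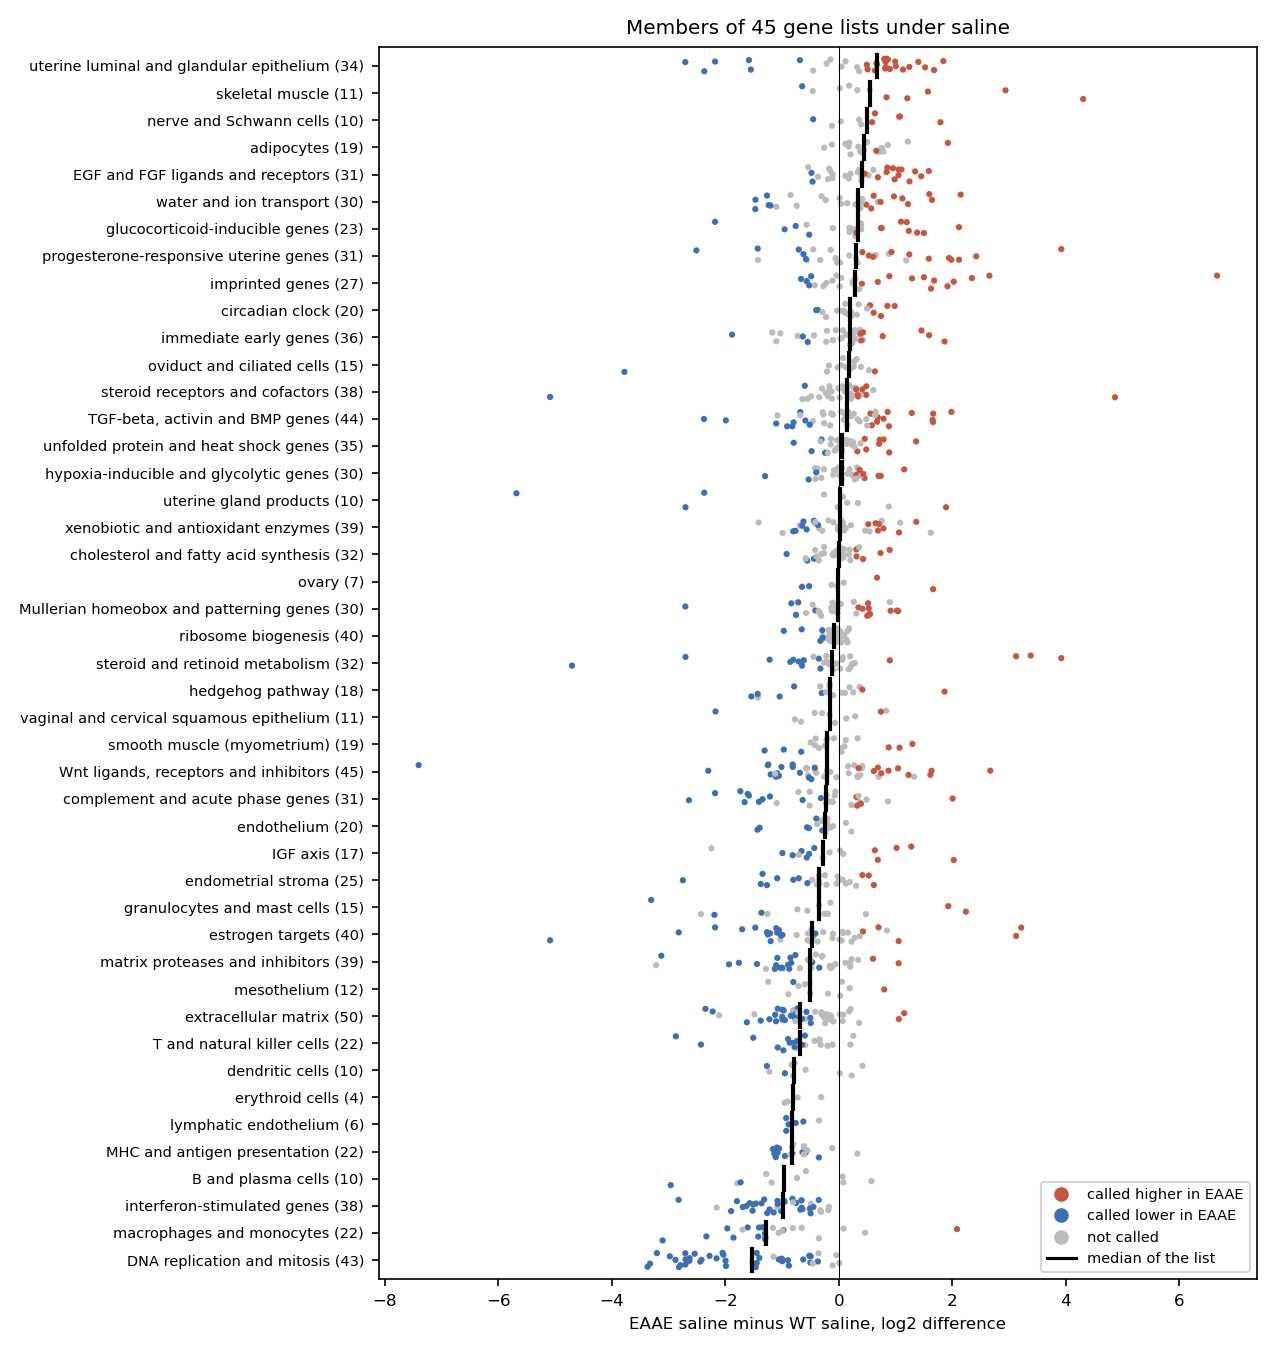
EAAE minus WT log2 difference under saline for every tested member of 45 gene lists, sorted by median. Each dot is a gene, red where called higher, blue where called lower and grey where not called; the black bar is the median of the list, and the number of members tested stands in parentheses. Medians run from -1.52 for replication and mitosis to 0.67 for uterine epithelium.

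Markers of tissues outside the uterine wall were read for material carried along in dissection. Of 19 adipocyte markers 2 were called higher, Cidea (-1.09, -1.05 and -0.79 against 0.88, 0.93 and 1.01, 1.92) and Hcar1 (0.66), and 0 lower. Hcar1 was not called with the slide block (adjusted p = 0.2) or without WT replicate 1 or 2 or EAAE replicate 2 or 3 (adjusted p = 0.0534 to 0.122). Their summed level spread widely within each genotype, 48.0 to 263 in WT and 64.0 to 281 in EAAE. Mesothelial markers overlapped likewise (33.2 to 47.2 and 39.0 to 49.3), with Msln (-0.89) and Bnc1 (-1.24) not called, as did erythroid markers (19.3 to 59.8 and 13.9 to 40.1), among which 0 of 4 were called. Nerve and Schwann cell markers were higher in 5 and lower in 1 of 10 (25.6 to 29.9 and 39.6 to 43.5), including Uchl1 (1.79, SE 0.21), Ncam1 (1.08, SE 0.11), S100b (0.59) and Sox10 (1.06; adjusted p = 0.111 with the slide block) against Mbp (-0.45). Another probe of Mbp gave 0.81 and was called higher in the fit of all probes (adjusted p = 0.012), so the direction of Mbp is uncertain. Skeletal muscle markers were higher in 5 and lower in 1 of 11 (6.52 to 8.14 and 9.42 to 13.6), with Tnni2 (1.57) and Myh4 (2.94) beside Tnnc2. The defining myosins Myh1 and Myh2 and Pvalb did not pass the background filter, and Acta1 was called lower (-0.64), but not with the slide block (adjusted p = 0.269). Ovarian markers split 2 to 2 of 7 and squamous markers 1 to 1 of 11, where Krt14 was at -2.17. Their part in the rises of Tnnc2 and the nerve genes was not tested.

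The mice given E2 allow the genotype difference to be read in other animals. The comparisons share no array, though they share one estimate of the spread. Position followed genotype here too, since the EAAE arrays after E2 all lay at position 4 and the WT arrays at positions 1, 2 and 3, so recurrence does not separate genotype from position. Of the 2803 genes higher in EAAE under saline, 2028 were also higher in EAAE after E2 (72.4% of the saline list and 31.3% of the 6469 genes higher after E2; 33.5% of all genes were), and 216 were lower. Of the 2911 genes lower under saline, 1536 were also lower after E2 (52.8% and 32.5% of 4722; 24.5% of all genes were), and 275 were higher. All 30 of the largest changes recurred in direction and call. Dlk1 was at 6.67 under saline and 6.55 after E2, Wif1 at -7.40 and -8.04, Cyp26a1 at 3.92 and 3.82, and Mki67 at -2.88 and -2.16. Some genotype differences were not the same with hormone: Slc9a2 was at 3.22 and -0.04 (adjusted p of the difference 4.56e-06), Ramp3 at -2.82 and -7.28 (1.4e-07), Cyp1b1 at 3.38 and 7.52 (3.13e-05), and Has2 at -0.84 and 4.49 (1.22e-06). For the lower macrophage marker Aif1 the values were -1.30 and -0.38 (0.0442), and for the matrix gene Lum -1.37 and -0.09 (0.00311).

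**Figure D5:**
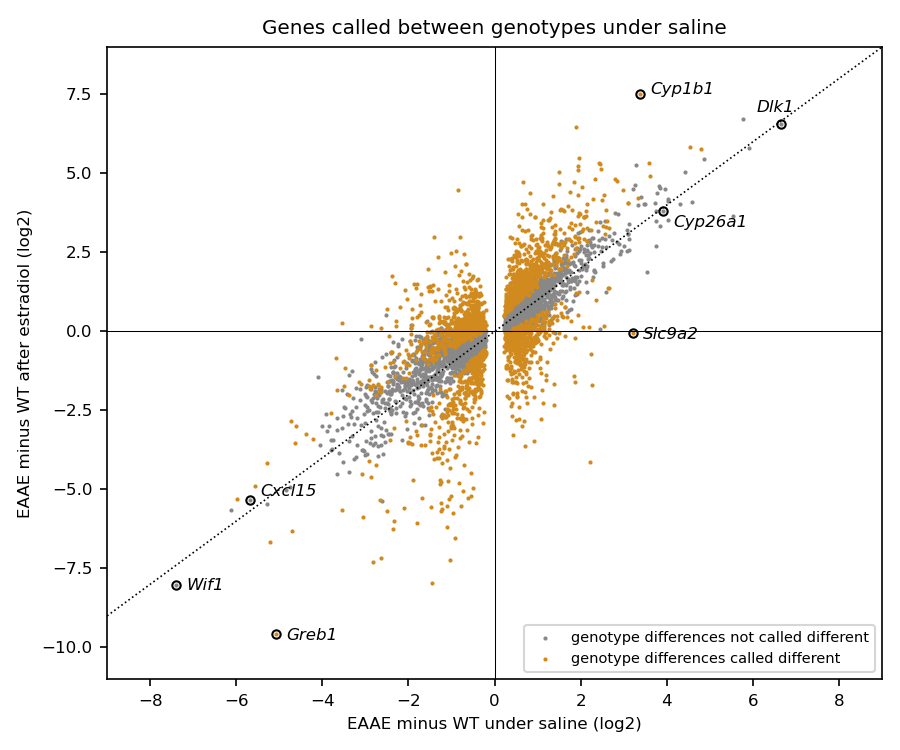
Genotype difference (EAAE minus WT, log2) under saline on the horizontal axis and after estradiol on the vertical axis, for the 5714 genes called under saline. Each dot is a gene, orange where the 2 differences were called different and grey otherwise, and the dotted line marks equal values. Dlk1, Cyp26a1, Wif1 and Cxcl15 lie near the line, whereas Slc9a2, Greb1 and Cyp1b1 lie away from it; for Greb1 both are fitted values of a gene that was not above background in EAAE under saline.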

How the data were processed

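Transcripts of whole mouse uterus were measured on single-colour Agilent arrays, 1 mouse per array, from 500 ng of total RNA. The authors extracted the deposited intensity values with Agilent Feature Extraction 9.5.3.1, per the file headers; these are linear and background-corrected, with no scaling between arrays. The deposited series table held identical values in all 12 columns. From them log2 values minus the 75th percentile of each array were computed; control and outlier spots were left out and spots of a probe averaged. A probe was kept if every array of some group (of 4) had it well above background, which left 29017 of 41174 probes and removed 12157; the brightest probe stood for each of 6733 genes with several. Names came from accessions (22951 probes by the systematic name and 131 by another), symbols (6582) or synonyms (3073) of a RefSeq table (GRCm38.p6), else from the files (8437). limma 3.58.1 (lmFit and eBayes, R 4.3.3) was fitted to all 12 arrays without a block, 2-sided, with 8 residual degrees of freedom; Python 3.11.15 made tables and figures. Arrays give no counting depth, so precision is set by the number of mice. The p-values rest on the spread between arrays within the 4 groups, estradiol arrays included. With 1 mouse per array this spread mixes variation between mice and between arrays. In simulated data the test recovered 32.8% of 67 changes of 0.5 log2, 64.2% of 67 of 1 and 90.9% of 66 of 2, with 12 false calls among 19301 genes. Only these genes were changed, a far smaller share than the 29.6% called here. The simulated spread was independent between arrays and held no effect of slide or position. The recovered shares therefore check the code and do not give the sensitivity of the real comparison.

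The members and the 45 gene lists were chosen with earlier results of these data known. The text names Esr1, the 15 genes that rose most and the 15 that fell most (called, not overlapping, with a symbol, and measured above background in each mouse of the higher group), up to 4 members with the smallest p in each list, and fixed genes including Pgr, Esr2, Greb1, Igf1, Ltf, Lif, C3, Lcn2, Wnt4, Wnt7a, Ihh, Foxa2, Hoxa10, Hoxa11, Hand2, Fos, Myc, Txnip, Has2, Fkbp5, Tsc22d3, Hsd11b2 and Mki67. Named after their values were seen were Acod1, Acta1, Adm, Aldh1a3, Ascl2, Axin2, Bub1, Ccnb2, Cdkn1c, Cenpf, Ctsd, Epcam, Fgf18, Fst, Grb10, H19, Hhip, Irf7, Irf9, Mbp, Mcm7, Meg3, Met, Muc4, Pdgfc, Peg3, Rian, Scnn1b, Scnn1g, Sgce, Smo, Sox10, Stc1, Sult1e1, Tgm2 and Usp29, and members mentioned only as not called. Some genes that these rules take in are not reported here. Bounds left every list's median as given. List counts are descriptions and not tests. Alternatives tried were other scalings, background corrections and filters, slide, position and replicate as terms, the saline arrays alone, all probes, a variance trend and leaving out each array.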

Additional observations from a re-analysis of the deposited data

Results flagged for a closer look

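The genotype difference (EAAE minus WT) was tested for a change between saline and estradiol. It differed in 7191 of 19301 genes (37.3%). Among the 30 genes with the largest differences under saline it differed in 11, given here as the log2 difference after estradiol minus that under saline. It was larger after estradiol for Cwh43 (0.96) and Gldc (1.3), which were higher in EAAE. Among genes lower in EAAE the fall was smaller after estradiol for Clvs2 (0.66), Trdn (0.66), Entpd8 (1.13), Krtap17-1 (1.9), Tinag (1.09) and A2ml1 (1.63), all of which rest on fitted values of a group that was not above background under saline. It was larger after estradiol for Gjb6 (-1.44), Greb1 (-4.48) and Akr1c14 (-1.61), the former pair on such fitted values too.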

How the results depend on the processing

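Against 2803 genes called higher and 2911 lower, slide as a block gave 1759 and 1869, position as a linear term 1541 and 1425, and slide with position 230 and 191. Leaving out 1 array gave 2001 to 2991 higher and 2147 to 3083 lower. Scaling, background, filter, all-probe, variance and saline-only settings stayed within 1.5 times. Whether the replicate numbers pair the mice cannot be settled with 3 arrays per group. Deviations from group means correlated at 0.113, -0.208 and 0.001 for same-numbered arrays, and at -0.238 to 0.259 for differently numbered ones. With the replicate block 2668 genes were higher and 2783 lower. Of 190 named genes called, 151 kept their call under all alternatives but slide with position and 52 under that too; 137 lost it with slide and position, 30 with position, 24 with slide, 3 with the replicate block and 16 without some array. The direction reversed only for genes that were not called, apart from Hcar1: Ltf with slide (-0.00088) and without an array (-0.42 to 0.7), C3 (0.6), Ihh (0.47), Ovgp1 (-0.21) and Hcar1 (-0.25) with slide and position, Hoxa10 without an array (-0.12 to 0.04), and Slc4a1 with position (0.11) and without an array (-0.64 to 0.04). The cause was not tested. The number of lists with a median above 0 was 19 and 17 to 19 under the alternatives run on it.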

Other observations

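Further genes were looked at for their place on the chromosome, a choice made after the data had been seen. On chromosome 10, which carries Esr1, the share of called genes was read by distance from the Esr1 probe (mm7): 15 of 40 genes within 5 Mb were called (37.5%), 24 of 79 from 5 to 20 Mb (30.4%), 36 of 101 from 20 to 40 Mb (35.6%), 39 of 110 from 40 to 60 Mb (35.5%), 82 of 267 from 60 to 80 Mb (30.7%) and 94 of 300 from 80 to 130 Mb (31.3%), against 5423 of 18403 on other chromosomes (29.5%). Clvs2 and Trdn, among the largest falls, lie 27.9 and 27.6 Mb from Esr1.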
